A study of Mus musculus with 9 samples.

Results

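The S100 genes encode small calcium-binding proteins, and Lgals1 encodes galectin-1, a lectin that binds galactose-containing sugars. The set described here holds 8 of the 27998 genes of the deposited single-cell count table: S100a4, S100a6, S100a8, S100a9, S100a10, S100a11, S100a13 and Lgals1. They were chosen by their levels, since earlier results of the same cells showed them to differ between cell types or groups of mice, so those levels are given as a description, and the tests on them are not independent support.

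Dissociated mouse livers were studied by single-cell RNA-seq, with 1 library per mouse. All mice were C57BL/6 and carried a doxycycline-controlled transactivator with a fluorescent reporter at the ROSA26 locus (ROSA26-rtTA-IRES-EGFP). According to the methods of the study, the mice also carried Alb-Cre, which is meant to direct the transactivator to hepatocytes. The cells were prepared so as to gain non-hepatocyte cells. The 2 WT mice lacked the YAP transgene and received doxycycline food for 7 days, whereas the tetYAP mice, whose transgene encodes the S127A form of the transcriptional co-activator YAP, received it for 3 days (YAP3d, 4 mice) or 7 days (YAP7d, 3 mice). WT and YAP7d mice were therefore fed doxycycline for the same time, and YAP3d mice for less. By this design the transgene is aimed at hepatocytes, the cells in which the study describes the induction. The other cell types are taken as neighbours of the induced cells. Whether the transgene was also on in other cells, such as those of bile ducts, was not tested, and few hepatocytes were recovered.

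S100 proteins work mostly as dimers. On binding calcium they expose a surface that holds partner proteins, among them annexins, the non-muscle myosin heavy chain and the plasma membrane scaffold AHNAK. S100A8 and S100A9 pair into calprotectin, which neutrophils store in their cytosol in bulk and release as an alarm signal that the receptors TLR4 and RAGE (Ager) read. Galectin-1 leaves the cell and crosslinks glycoproteins such as CD45 (Ptprc), CD43 (Spn), integrins and neuropilin-1 (Nrp1) on the surface of lymphocytes and endothelial cells. In the liver, S100 proteins are best known from infiltrating myeloid cells and from bile duct cells and hepatocytes under injury.

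The 7 S100 genes lie on chromosome 3, where most mouse S100 genes form a cluster, and all 8 members are protein-coding. On GRCm38.p6 (mm10, the build the submitters' notes give) the RefSeq gene models place S100a13 at 3:90514233-90524581, S100a4 at 3:90603770-90606045, S100a6 at 3:90612894-90614414, S100a8 at 3:90669071-90670034 and S100a9 at 3:90692630-90695721. Farther along are S100a11 at 3:93520496-93526288 and S100a10 at 3:93555117-93564645. Lgals1 lies alone on chromosome 15, at 15:78926725-78930465. The models of S100a13 and its neighbour S100a1 (3:90511034-90514330) overlap at their ends. S100a11 has a processed copy, S100a11-ps, at 12:73961087-73961577 that is no row of the count table, so counts of S100a11 could include or lack reads from it.

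The RefSeq tables matched 6 of the 8 members with a promoter. The 250 bases before the start of 4 genes are shown because results below turn on them: S100a8 and S100a9 held a large part of the RNA of neutrophil-like cells, S100a4 was highest in monocyte-like cells, and S100a11 was high in neutrophil-like cells and in hepatocyte-like cells of YAP7d mice. Letters are 5′ to 3′ on the gene's own strand. Capitals mark the TATA box TATAAA in S100a8 and S100a4, the C/EBP motif TTGCNNAA in S100a9 and the AP-1 motif TGANTCA in S100a11.
S100a8, 3:90668821-90669070, plus strand: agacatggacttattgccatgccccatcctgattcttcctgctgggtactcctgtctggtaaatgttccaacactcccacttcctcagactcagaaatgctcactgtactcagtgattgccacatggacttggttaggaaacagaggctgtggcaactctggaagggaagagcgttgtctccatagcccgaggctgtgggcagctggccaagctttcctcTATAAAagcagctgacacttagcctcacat
S100a9, 3:90695722-90695971, minus strand: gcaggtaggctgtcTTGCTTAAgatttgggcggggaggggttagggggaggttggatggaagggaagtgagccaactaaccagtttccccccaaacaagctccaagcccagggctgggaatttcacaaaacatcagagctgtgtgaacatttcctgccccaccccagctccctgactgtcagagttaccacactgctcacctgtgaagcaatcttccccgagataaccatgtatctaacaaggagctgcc
S100a4, 3:90603520-90603769, plus strand: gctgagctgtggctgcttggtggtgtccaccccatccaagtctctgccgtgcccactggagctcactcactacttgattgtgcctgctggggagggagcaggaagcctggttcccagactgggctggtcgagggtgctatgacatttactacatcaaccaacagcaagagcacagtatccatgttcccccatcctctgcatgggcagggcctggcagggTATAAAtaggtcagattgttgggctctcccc
S100a11, 3:93520246-93520495, plus strand: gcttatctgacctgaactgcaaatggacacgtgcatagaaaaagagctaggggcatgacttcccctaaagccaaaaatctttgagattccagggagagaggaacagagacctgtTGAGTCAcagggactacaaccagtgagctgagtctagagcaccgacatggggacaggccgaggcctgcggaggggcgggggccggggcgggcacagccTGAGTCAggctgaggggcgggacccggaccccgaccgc

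TATAAA stood 30 bases before the start of S100a8 and 31 bases before that of S100a4, and 12.4% of the 32851 promoters of the same length held it on either strand. TTGCNNAA, the palindromic core of C/EBP sites, stood 236 bases before the start of S100a9 and was held by 9.56% of promoters. TGANTCA, the AP-1 site, occurred at 136 and 38 bases before the start of S100a11 and in 6.75% of promoters. GGGCGG, the GC box, occurred 3 times before S100a11 and once before S100a9, against 32.7% of promoters with at least 1. GGAATG, the motif of TEAD factors through which YAP binds DNA, was in none of the 6 promoters and in 12.6% of all. These are matches of letters in a short window, on both strands, and say nothing of binding.

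The table held 63380159 UMIs (unique molecular identifiers, the tags that tell captured RNA molecules apart) in 8562 cells. Libraries held between 293 and 2554 cells, between 1314878 and 25056881 UMIs, and a median of between 3190.5 and 11471.5 UMIs per cell. YAP7d replicate 3 was the deepest. Cells were clustered without the 8 members and grouped into classes by markers, and a class is called by the type it resembles. The markers bore out the labelled tissue only in part: endothelial-like, immune and bile-duct-like (cholangiocyte-like) cells were found, whereas hepatocyte-like cells numbered 115, of which 2 and 1 came from the WT libraries. A level below is in CPM, the UMIs of a gene per 1000000 UMIs of a class in a library, with at least 10 cells of the class unless stated, and the library is the replicate.

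Some libraries stood apart. In YAP7d replicate 3 the neutrophil transcripts S100a8 and S100a9 were widespread, and S100a8 was found at 278 CPM or more in every other tested class, B-cell-like and T-cell-like cells included, which do not use these genes. YAP3d replicate 2 was rich in monocyte-like cells, which made 21.0% of its cells against between 1.66% and 2.98% in the other YAP3d libraries. The pseudogene Gm10709 was at 3.65 and 11.04 CPM in the WT libraries and at 347, 428, 4.69 and 11.2 CPM in the YAP3d libraries, against 363, 392 and 611 CPM in the YAP7d libraries, so that the split into 5 libraries with over 100 CPM and 4 with less runs through the YAP3d group. No WT library had over 100 CPM and no YAP7d library less, so WT and YAP7d have no library on the same side of the split, and a term for it in the fit rests on the YAP3d libraries. Of 8515 barcodes, 46 occurred in more than 1 library.

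Each member had its own pattern over the cell classes. By the mean over libraries, and among the 11 classes of the heat map, S100a6, S100a8, S100a9 and S100a11 were highest in neutrophil-like, S100a4 in monocyte-like, S100a10 in hepatocyte-like, S100a13 in endothelial-like and Lgals1 in plasmacytoid-dendritic-like cells. Classes were drawn without these genes, but from the same cells, so the order of classes is a description with no test. The heat map of mean levels gives the 8 genes in 11 classes, and its hepatocyte-like means rest on YAP3d and YAP7d libraries alone. Basophil- and mast-cell-like cells and stellate- and fibroblast-like cells, of which at most 1 library had 10 cells, are not in it.

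**Figure D1:**
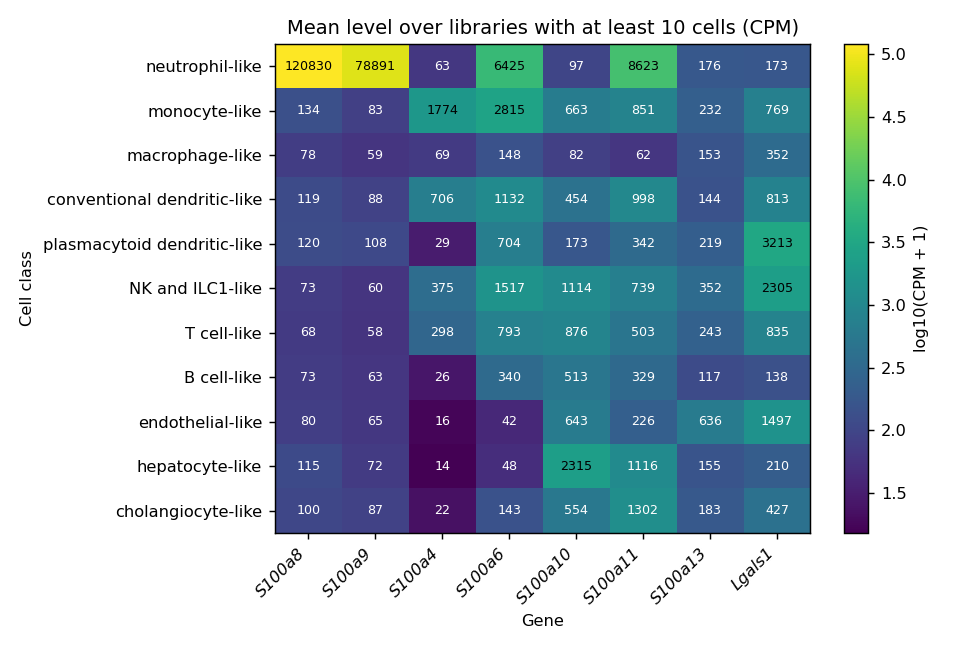
Mean level of the 8 genes (columns) in 11 cell classes (rows), in CPM averaged over the libraries with at least 10 cells of the class, printed in each field. The colour is log10 of the level plus 1. S100a8 and S100a9 reach 120830 and 78891 CPM in neutrophil-like cells and at most 134 and 108 CPM in the other 10 classes, and S100a13 is highest, at 636 CPM, in endothelial-like cells.

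S100a8 and S100a9, the subunits of calprotectin, were the RNA of neutrophil-like cells above all. S100a8 was at 65155 CPM in WT replicate 2, at 155710 and 105390 CPM in YAP3d replicates 2 and 4, and at 157060 CPM in YAP7d replicate 3, the 4 libraries with at least 10 such cells. In the libraries with 1 to 6 neutrophil-like cells it lay between 68847 and 143230 CPM. S100a9 was at 44368, 101670, 73200 and 96331 CPM in the same 4 libraries. Together the pair made up between 10.95% and 25.7% of all UMIs of neutrophil-like cells over the 9 libraries, and both genes were above every other member in each library. The number of such cells was 5 and 24 in WT, 6, 15, 6 and 44 in YAP3d and 5, 1 and 49 in YAP7d libraries, too few for a test between groups.

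S100a8 exceeded S100a9 in neutrophil-like cells of every library, by a ratio between 1.33 and 1.63. Outside these cells the ratio lay between 0.889 and 1.75, and 24 and 27 UMIs in all stood behind the lowest of these, that of WT replicate 1. Neutrophil-like cells held between 69.4% and 98.1% of the S100a8 UMIs of a library. The lowest share was that of YAP7d replicate 2, with 1 neutrophil-like cell.

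Outside neutrophil-like cells S100a8 was at a like low level in most classes of a library and differed between libraries. In B-cell-like cells it was at 16.1 and 60.6 CPM in WT, at 0, 54.7, 44.2 and 143 CPM in YAP3d and at 18.4, 13.3 and 309 CPM in YAP7d libraries. T-cell-like cells had 6.82 and 56.1 CPM, 18.4, 32.8, 39.6 and 129 CPM, and 16.5, 34.0 and 278 CPM in the same order, and macrophage-like cells 10.9 and 64.9 CPM, 0, 40.7, 30.6 and 170 CPM, and 10.8, 25.0 and 348 CPM. B and T cells do not use the gene, so no expression is read from levels near theirs, among them those of macrophage-like cells, which were above the B-cell-like level in 4 of 9 libraries. The part of free RNA in these levels was not tested. The WT replicate 2 value of conventional-dendritic-like cells, 587 CPM, stood out. Elane, Ctsg and Mpo, genes of neutrophil precursors, were among the 10 leading genes of 1 of the 2 clusters of that class. Monocyte-like cells exceeded the B-cell-like level in 5 of 7 libraries, with 0 and 66.1 CPM in WT, 86.2 CPM in YAP3d replicate 2 against 54.7 CPM, 137 against 143 CPM in YAP3d replicate 4, and 39.0, 99.7 and 509 CPM in YAP7d libraries.

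**Figure D2:**
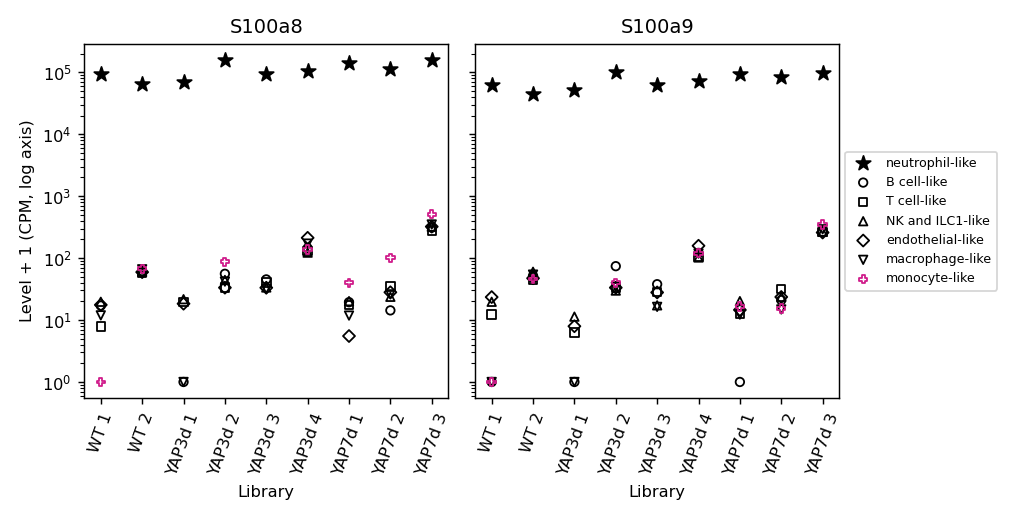
Level plus 1, in CPM on a log axis, of S100a8 and S100a9 in each of 9 libraries, with 1 symbol per cell class. Neutrophil-like cells (stars) lie between 44368 and 157060 CPM in all libraries for both genes, whereas most other classes of a library lie close together. Of S100a8, the highest of these points is that of monocyte-like cells of YAP7d replicate 3, at 509 CPM. Conventional-dendritic-like cells are not drawn.

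Over all cells of a library S100a8 was at 422 and 562 CPM in WT, at 584, 2000, 569 and 1114 CPM in YAP3d and at 640, 95.9 and 2652 CPM in YAP7d libraries. The groups overlapped. Neutrophil-like cells made 0.960% and 1.69% of cells in WT, 2.14%, 3.39%, 1.42% and 1.72% in YAP3d and 0.835%, 0.217% and 2.67% in YAP7d libraries. The lowest library and the highest 2 were the same by both measures, whereas YAP3d replicate 1 had a higher share and a lower level than YAP3d replicate 4. In such sums fewer cells of a type and less RNA per cell cannot be told apart. With edgeR's quasi-likelihood test and Benjamini-Hochberg adjustment over all 12071 genes, the log2 fold change of S100a8 between YAP7d and WT was 1.49 (SE 1.08, adjusted p 0.349).

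S100a4, which binds non-muscle myosin and is known from motile cells, was highest in monocyte-like cells. It was there at 932 and 1310 CPM in WT libraries, at 2137 and 1830 CPM in the 2 YAP3d libraries with enough cells and at 2030, 1944 and 2234 CPM in YAP7d libraries. No WT value reached the lowest YAP7d value. The log2 fold change between YAP7d and WT was 0.89 (SE 0.25) and did not pass edgeR's quasi-likelihood test with Benjamini-Hochberg adjustment (adjusted p 0.279). S100a4 was itself among the 10 leading genes of cluster 4, the F13a1-led monocyte-like cluster, where its levels ran from 1650 to 2906 CPM, against 836 to 1761 CPM in the Ace-led cluster 15. Both clusters held most of their cells in YAP7d libraries.

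Conventional-dendritic-like cells had the next highest S100a4 level in the mean over all libraries, though below NK- and ILC1-like cells in both WT libraries and in YAP3d replicate 1. They were at 304 and 273 CPM in WT, at 184, 1184, 663 and 582 CPM in YAP3d and at 1405, 780 and 976 CPM in YAP7d libraries. All YAP7d values exceeded both WT values, and the log2 fold change of 1.81 (SE 0.52) missed the threshold (edgeR's quasi-likelihood test, adjusted p 0.24). The level divided the class: it ran from 201 to 1615 CPM in cluster 10, led by Cd209a, and from 0 to 127 CPM in cluster 20, led by Xcr1 and Clec9a. Cluster 10 held 37, 101 and 188 cells of WT, YAP3d and YAP7d mice and cluster 20 held 35, 60 and 62.

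In T-cell-like cells S100a4 was at 118 and 157 CPM in WT, at 350, 346, 137 and 251 CPM in YAP3d and at 312, 405 and 601 CPM in YAP7d libraries. WT and YAP7d values did not overlap (log2 fold change 1.74, SE 0.40, adjusted p 0.160 by edgeR's quasi-likelihood test). In cluster 2 alone, led by Cxcr6 and holding 228, 424 and 99 cells of the 3 groups, the levels were 80.6 and 86.6 CPM, 211, 193, 217 and 87.8 CPM, and 273, 378 and 629 CPM. There S100a4 passed edgeR's quasi-likelihood test against both other groups, in a setting added after the data were seen. Its log2 fold changes were 2.39 (adjusted p 0.0305) against WT and 1.41 (adjusted p 0.0248) against YAP3d. By the same test S100a6 (1.16, adjusted p 0.0141) and Lgals1 (0.97, adjusted p 0.0110) passed there against YAP3d as well. The share of all genes called in this cluster is not given here. The other large clusters of the class, 9 and 11, held 174 and 56 cells of WT, 338 and 113 of YAP3d and 156 and 134 of YAP7d mice, and the part of this make-up in the differences of the whole class was not tested.

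NK- and ILC1-like cells, the innate lymphocytes of the liver, went the other way. S100a4 was at 598 and 460 CPM in WT, at 362, 366, 406 and 461 CPM in YAP3d and at 252, 168 and 305 CPM in YAP7d libraries, so that every YAP7d value lay below every other. It fell by 0.97 on the log2 scale (SE 0.27) between WT and YAP7d (edgeR's quasi-likelihood test, adjusted p 0.0379). The call was lost without either WT library (adjusted p 0.313 and 0.136), without YAP3d replicate 1 (0.0562) and without YAP7d replicate 1 or 2 (0.0986 and 0.127). It was also lost with thinned cells (log2 fold change -0.68, adjusted p 0.269), without cycling cells (-1.13, adjusted p 0.138), without the filter on low counts (-0.80, adjusted p 0.123) and with only WT and YAP7d in the fit (-0.97, adjusted p 0.0691). The clusters of the class differed. Cluster 0 held 62, 111 and 32 cells of WT, YAP3d and YAP7d mice with S100a4 at 964 and 753 CPM in WT, 568, 828, 548 and 640 CPM in YAP3d and 638 CPM in YAP7d replicate 3, and cluster 5, led by Klra4 and Klra8, held 50, 90 and 225 cells. In cluster 5 the level was 24.0 and 102 CPM in WT, 74.3, 154 and 132 CPM in the 3 YAP3d libraries with at least 10 cells and 191, 168 and 250 CPM in YAP7d libraries, with no overlap of YAP7d and WT (log2 fold change 1.44, adjusted p 0.0824 by edgeR's quasi-likelihood test). The part of cluster membership in the fall was not tested.

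**Figure D3:**
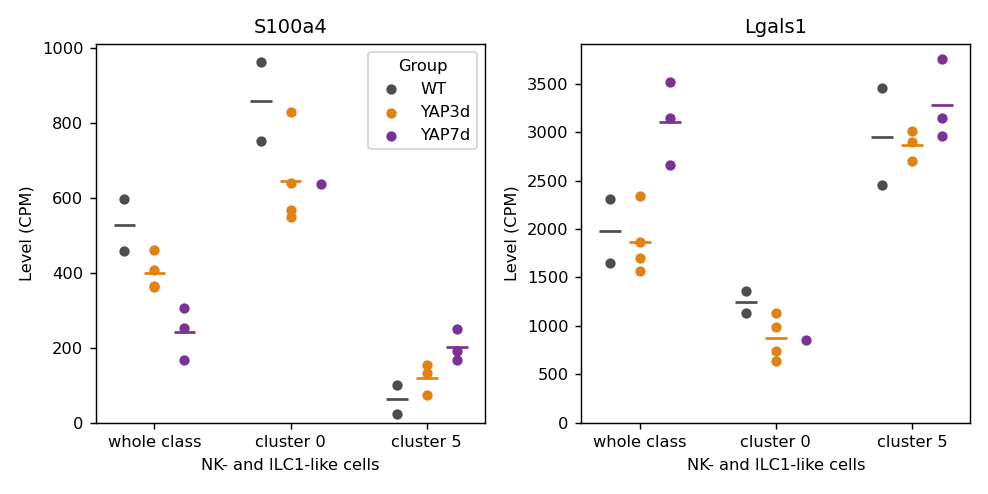
Level of S100a4 and Lgals1, in CPM, in all NK- and ILC1-like cells and in their clusters 0 and 5, with 1 point per library with at least 10 cells and a bar at the group mean. S100a4 is lower in YAP7d over the whole class and not in cluster 5, where YAP7d libraries lie at 168 to 250 CPM and WT libraries at 24.0 and 102 CPM.

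Endothelial-like cells had hardly any S100a4, at 1.18 and 6.91 CPM in WT, 3.47, 27.7, 10.7 and 22.7 CPM in YAP3d and 9.03, 4.51 and 59.1 CPM in YAP7d libraries. The UMIs behind these were 1 and 16, then 1, 6, 6 and 84, and then 2, 1 and 53. The fitted log2 fold change between YAP7d and WT, 2.79 (SE 0.77), passed edgeR's quasi-likelihood test (adjusted p 0.0203), although WT and YAP7d values overlapped. In 6 of the 9 libraries the level was below that of B-cell-like cells, which had 0 and 61.9, 8.86, 18.3, 22.1 and 49.97, and 9.20, 0 and 60.0 CPM. Some of these levels rest on few UMIs, as 2 against 1 in YAP7d replicate 1. No expression is read from such levels, and the part of free RNA in them was not tested. The gene was filtered out as too low when YAP7d replicate 3 was left out, and without WT replicate 1 the call was lost (2.34, adjusted p 0.102).

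S100a6, or calcyclin, a partner of CACYBP, followed S100a4 in part. Of the 11 classes it was highest in neutrophil-like cells, at 4982 CPM in WT replicate 2, 8844 and 5595 CPM in YAP3d replicates 2 and 4 and 6279 CPM in YAP7d replicate 3. Monocyte-like cells had 2010 and 2205 CPM in WT, 3463 and 2059 CPM in YAP3d and 3163, 3501 and 3304 CPM in YAP7d libraries, and these classes did not overlap in level. NK- and ILC1-like cells followed, with 1861 and 1535 CPM, 1489, 1295, 1854 and 1981 CPM, and 1082, 1230 and 1323 CPM in the same order. Stellate- and fibroblast-like cells, outside this order, had 3976.5 CPM in the 10 cells of YAP3d replicate 4, above the monocyte-like cells of that library. In NK- and ILC1-like cells all YAP7d values were below both WT values, with a log2 fold change of -0.39 (SE 0.22, adjusted p 0.315 by edgeR's quasi-likelihood test).

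In 4 other classes S100a6 of YAP7d libraries exceeded both WT values without passing the test. Conventional-dendritic-like cells had 508 and 584 CPM in WT, 444, 1836, 996 and 901 CPM in YAP3d and 2133, 1533 and 1256 CPM in YAP7d libraries (log2 fold change 1.5, SE 0.42, adjusted p 0.24). T-cell-like cells had 482 and 600 CPM, 476, 1053, 719 and 385 CPM, and 1017, 1248 and 1152 CPM (1.12, SE 0.33, adjusted p 0.256), in a class whose clusters differed in size between the groups as given for S100a4. Macrophage-like cells had 32.7 and 112 CPM, 0, 239, 76.5 and 76.9 CPM, and 180, 124 and 487 CPM (1.62, SE 0.72, adjusted p 0.244), against 40.2 and 946 CPM, 221, 54.7, 170 and 420 CPM, and 313, 73.2 and 817 CPM in B-cell-like cells. The B-cell-like level of S100a6 exceeded that of macrophage-like cells in 7 of the 9 libraries. Monocyte-like cells, with the values above, gave 0.68 (SE 0.25, adjusted p 0.463), all from edgeR's quasi-likelihood test.

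Over all cells S100a4 was at 123 and 178 CPM in WT, at 218, 876, 167 and 237 CPM in YAP3d and at 560, 230 and 928 CPM in YAP7d libraries, and S100a6 at 390 and 615 CPM, 485, 1682, 495 and 559 CPM, and 1097, 561 and 1565 CPM. The high YAP3d value of both genes was that of YAP3d replicate 2, where monocyte-like cells held 74.8% of the S100a4 UMIs and 63.1% of the S100a6 UMIs. Monocyte-like cells made 1.92% and 4.31% of cells in WT, 2.14%, 21.0%, 1.66% and 2.98% in YAP3d and 19.2%, 7.59% and 34.4% in YAP7d libraries. The log2 fold changes between YAP7d and WT were 2.15 (SE 0.82, adjusted p 0.0901) for S100a4 and 1.30 (SE 0.64, adjusted p 0.175) for S100a6 by edgeR's quasi-likelihood test.

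S100a10, or p11, binds annexin A2 and carries it to the plasma membrane. Its level was steady in lymphocytes and endothelial-like cells: NK- and ILC1-like cells ranged from 993 to 1350 CPM over the 9 libraries (mean 1114 ± 119, SD, n = 9) and T-cell-like cells from 737 to 1017 CPM (876 ± 107, SD, n = 9). Endothelial-like cells had 583 and 644 CPM in WT, 607, 609, 593 and 685 CPM in YAP3d and 655, 672 and 739 CPM in YAP7d libraries, with a log2 fold change between YAP7d and WT of 0.21 (SE 0.16, adjusted p 0.4 by edgeR's quasi-likelihood test). Macrophage-like cells had little, from 21.8 CPM to 181 CPM. Conventional-dendritic-like cells had 285 and 332 CPM in WT, 368, 574, 344 and 471 CPM in YAP3d and 624, 574 and 513 CPM in YAP7d libraries, where the groups WT and YAP7d did not overlap (0.80, SE 0.25, adjusted p 0.290 by edgeR's quasi-likelihood test).

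Of the 11 classes of the heat map, hepatocyte-like cells, in which the transgene is meant to be induced, had the highest mean S100a10 level. That mean covers YAP3d and YAP7d libraries only, as no WT library had 10 such cells. In YAP3d replicate 3 NK- and ILC1-like cells were higher, at 1350 against 1287 CPM, and in YAP3d replicate 4 both were at 1070 CPM. In YAP3d replicate 2 and in the YAP7d libraries hepatocyte-like cells were higher. In YAP3d replicate 4 the 10 stellate- and fibroblast-like cells were higher, at 1857 CPM. In hepatocyte-like cells it was 2268, 1287 and 1070 CPM in the YAP3d libraries with at least 10 such cells and 3470, 2592 and 3202 CPM in YAP7d libraries. YAP3d replicate 1, with 9 cells, had 1852 CPM, and the 2 cells of WT replicate 1 had 848 CPM (11 UMIs, exact Poisson 95% interval 423 to 1517 CPM). All YAP7d values exceeded all YAP3d values, with 11 to 28 cells in the libraries that had at least 10. No test was run, as a class was fitted only when every group had at least 2 such libraries, which WT did not. Intervals of single libraries cover counting error only.

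S100a11, another annexin partner, also did not overlap between YAP3d and YAP7d hepatocyte-like cells. It was at 228, 44.4 and 66.9 CPM in YAP3d replicates 2, 3 and 4, from 17, 2 and 7 UMIs, at 217 CPM in the 9 cells of YAP3d replicate 1, and at 1926, 1253 and 3179 CPM in YAP7d libraries, from 394, 158 and 410 UMIs. The exact Poisson 95% intervals of YAP7d libraries ran from 1065 CPM upwards and those of YAP3d libraries to 388 CPM at most. In the 2 and 1 hepatocyte-like cells of the WT libraries no S100a11 UMI was seen, which allows up to 231 and 1987 CPM.

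Other genes moved with S100a11 in hepatocyte-like cells. Anxa2, the partner of S100A10, was at 26.8, 0 and 38.2 CPM in YAP3d replicates 2, 3 and 4 and at 254, 270 and 465 CPM in YAP7d libraries. The 12 hepatocyte markers, such as Alb and Apoa1, summed to between 23042 and 25361 CPM in YAP3d and between 26785 and 33195 CPM in YAP7d libraries. The cholangiocyte markers summed to between 1109 and 1852 CPM in YAP3d and between 3829 and 6070 CPM in YAP7d libraries. Cholangiocyte-like cells themselves held S100a11 at 1242 CPM in WT replicate 2 and 1361 CPM in YAP3d replicate 4, and their own markers at 46498 and 45895 CPM. The part of these in the S100a11 level was not tested. Yap1 was at 80.5, 22.2 and 57.3 CPM in the same YAP3d libraries and at 73.3, 87.2 and 147 CPM in YAP7d libraries, and whether transgene transcripts are counted as Yap1 is not given in the sources used here.

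**Figure D4:**
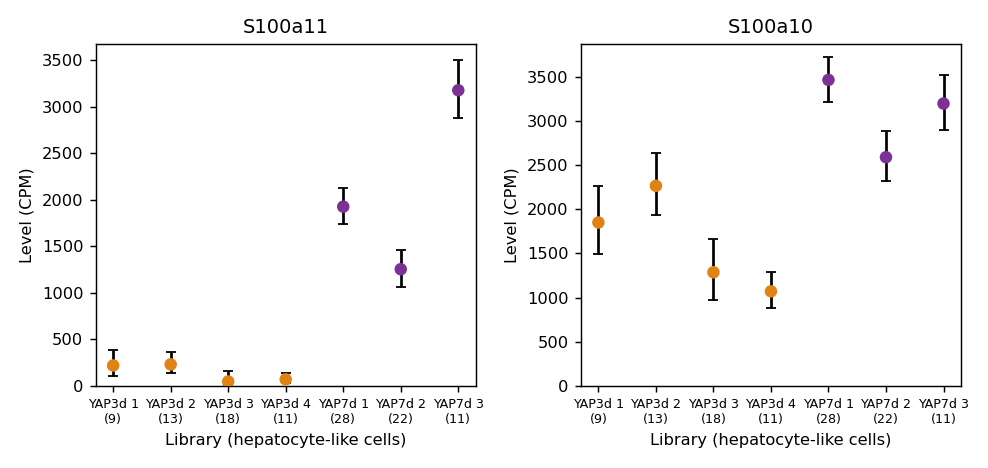
Level of S100a11 and S100a10 in hepatocyte-like cells of the YAP3d and YAP7d libraries, in CPM, with the number of cells in brackets. Error bars are exact Poisson 95% intervals, which cover counting error only. The 3 YAP7d libraries lie at 1253 to 3179 CPM for S100a11, above all YAP3d libraries, which lie at 44.4 to 228 CPM.

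Elsewhere S100a11 was highest in neutrophil-like cells, at 9632 CPM in WT replicate 2, 9372 and 9964 CPM in YAP3d replicates 2 and 4 and 5526 CPM in YAP7d replicate 3. No other class reached these values. NK- and ILC1-like cells had 795 and 825 CPM in WT, 838, 809, 780 and 862 CPM in YAP3d and 491, 563 and 684 CPM in YAP7d libraries. The YAP7d values were below all others, with a log2 fold change against WT of -0.39 (SE 0.22, adjusted p 0.312 by edgeR's quasi-likelihood test). Endothelial-like cells stayed between 167 and 351 CPM and macrophage-like cells between 17.2 and 134 CPM, in both with overlapping groups.

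S100a13, which takes part in the release of the growth factor FGF1, a protein without a signal peptide, was the member of endothelial-like cells. It was at 739 and 697 CPM in WT, at 677, 549, 722 and 747 CPM in YAP3d and at 533, 591 and 475 CPM in YAP7d libraries, above the NK- and ILC1-like cells, which ranged from 283 to 419 CPM. YAP7d and WT endothelial-like cells did not overlap, and the log2 fold change of -0.41 (SE 0.17) missed the threshold (edgeR's quasi-likelihood test, adjusted p 0.103). T-cell-like cells ranged from 196 to 282 CPM and B-cell-like cells from 79.7 to 156 CPM.

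Over all cells S100a13 fell. It was at 430 and 366 CPM in WT, at 298, 258, 364 and 354 CPM in YAP3d and at 207, 194 and 197 CPM in YAP7d libraries, and it fell by 0.82 on the log2 scale (SE 0.20) between WT and YAP7d (edgeR's quasi-likelihood test, adjusted p 0.0227). The call was lost without either WT library (adjusted p 0.144 and 0.0878) and without YAP7d replicate 1 or 2 (0.0595 and 0.0695). It was also lost without cycling cells, where S100a13 had a log2 fold change of -0.71 (adjusted p 0.0670) and S100a4 and S100a6 passed the test instead, with 3.13 (adjusted p 0.0339) and 2.25 (adjusted p 0.0498). S100a13 was the 1 member of 8 called in that comparison, in which 18.1% of all 12071 genes were called. Endothelial-like cells made 53.0% and 35.5% of cells in WT, 26.7%, 11.5%, 38.4% and 30.2% in YAP3d and 4.01%, 4.99% and 3.49% in YAP7d libraries, and they held 75.8% and 60.1%, then 50.8%, 15.2%, 65.0% and 59.8%, and then 9.97%, 16.3% and 8.62% of the S100a13 UMIs. Between YAP7d and YAP3d, where 16.5% of genes were called, 0 of 8 members were, 2 of them, S100a13 and Lgals1, with an unadjusted p below 0.05, and DESeq2 called 0. Between YAP3d and WT 0 of 8 members and 0% of genes were called, with no member at an unadjusted p below 0.05 and none by DESeq2.

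Lgals1 was the member with most calls. Of the 11 classes in the heat map its level was highest in plasmacytoid-dendritic-like cells, at 3497 CPM in WT replicate 2, 3242 CPM in YAP3d replicate 4 and 3675 and 2438 CPM in YAP7d replicates 1 and 3, and then in NK- and ILC1-like cells (mean 2305 ± 692 CPM, SD, n = 9) and endothelial-like cells (1497 ± 751 CPM, SD, n = 9). T-cell-like cells (835 ± 251 CPM, SD, n = 9), conventional-dendritic-like cells (813 ± 385 CPM, SD, n = 9) and monocyte-like cells (769 ± 277 CPM, SD, n = 7) came next, and B-cell-like cells last, at 138 ± 121 CPM (SD, n = 9). Neighbours in this order overlapped at every step. Stellate- and fibroblast-like cells, outside the order because only YAP3d replicate 4 had 10 of them, had 3521 CPM there, above the plasmacytoid-dendritic-like cells of the same library.

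In macrophage-like cells Lgals1 was at 43.6 and 146 CPM in WT (mean 94.6 ± 72.1, SD, n = 2), at 189, 291, 115 and 135 CPM in YAP3d (183 ± 78.6, SD, n = 4) and at 726, 532 and 996 CPM in YAP7d libraries (751 ± 233, SD, n = 3). Every YAP7d value exceeded every other. Lgals1 rose by 2.75 on the log2 scale (SE 0.47, adjusted p 0.00665) against WT and by 2.06 (SE 0.35, adjusted p 0.0126) against YAP3d, by edgeR's quasi-likelihood test with Benjamini-Hochberg adjustment. Against WT the call was lost without either WT library, with log2 fold changes of 2.37 (adjusted p 0.0951) and 4.16 (adjusted p 0.141), and against YAP3d without YAP3d replicate 1, 3 or 4 or YAP7d replicate 3 (adjusted p 0.102, 0.0746, 0.0656 and 0.0878). With cells thinned to 2000 UMIs, in a fit without YAP3d replicate 1, which then had too few cells, neither call was kept, with log2 fold changes of 2.99 (adjusted p 0.0823) against WT and 2.40 (adjusted p 0.161) against YAP3d. Lgals1 was the 1 of 8 members called in either comparison, in which 1.62% and 0.345% of 6658 genes were called. Between YAP3d and WT 0 members and 0% of genes were, with no member at an unadjusted p below 0.05 and none called by DESeq2.

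The macrophage-like class was not made of the same cells in all groups. Cluster 13, with the Kupffer cell genes Clec4f and Vsig4 in front, held 53, 70 and 0 cells of WT, YAP3d and YAP7d mice, cluster 14, with Cd5l and Clec4f, held 32, 75 and 381, and cluster 21, led by C1qa, Cd207 and Cx3cr1, held 12, 27 and 395. Lgals1 was at 21.0 and 158 CPM in WT, 82.7 and 79.7 CPM in YAP3d replicates 2 and 3, and 310, 253 and 305 CPM in YAP7d libraries in cluster 14. In cluster 21 it was at 309 CPM in YAP3d replicate 4 and at 1515, 1199 and 1366 CPM in YAP7d libraries. No WT library had 10 cells in cluster 21. In cluster 14 alone, fitted without YAP3d replicates 1 and 4, Lgals1 missed the threshold, with log2 fold changes of 2.02 (adjusted p 0.0859) against WT and 1.86 (adjusted p 0.0641) against YAP3d by edgeR's quasi-likelihood test.

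Kupffer cell markers in the macrophage-like class summed to between 14205 and 15338 CPM in WT, between 7305 and 16875 CPM in YAP3d and between 5504 and 12835 CPM in YAP7d libraries. Monocyte markers were at 1318 to 1766 CPM, 982 to 1845 CPM and 1860 to 2576 CPM, and cell cycle genes at 452 to 490 CPM, 337 to 1575 CPM and 1767 to 2017 CPM, in the same order. Their part in the result was not tested. In macrophage-like cells with fewer than 2 UMIs of cell cycle genes Lgals1 was at 52.8 and 182 CPM in WT, 640, 183 and 146 CPM in YAP3d replicates 2, 3 and 4 and 520 and 810 CPM in YAP7d replicates 2 and 3. YAP3d replicate 1, with 6 such cells and 242 CPM, and YAP7d replicate 1, with 9 and 850 CPM, were left out of the fit of these cells (log2 fold change 2.32 against WT, adjusted p 0.201, and 1.20 against YAP3d, adjusted p 0.600, by edgeR's quasi-likelihood test). With monocyte-like and macrophage-like cells pooled the log2 fold changes were 1.35 (adjusted p 0.265) and 1.08 (adjusted p 0.336) by the same test. The share of macrophage-like cells with a Lgals1 UMI, with all cells thinned to 2000 UMIs, had a median of 9.38% (0% to 18.8%) in WT, 9.09% (6.67% to 24.4%) in YAP3d and 49.0% (47.8% to 69.4%) in YAP7d libraries. Unthinned medians were 29.1%, 42.0% and 85.5%. In B-cell-like cells the thinned medians were 20.7%, 13.8% and 15.6%, so that by this share WT and YAP3d macrophage-like cells were below B-cell-like cells and YAP7d macrophage-like cells above them. By level, macrophage-like cells exceeded B-cell-like cells in 3 of 4 YAP3d libraries, with 189, 291 and 115 CPM against 53.2, 91.2 and 51.6 CPM, and in neither WT library.

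**Figure D5:**
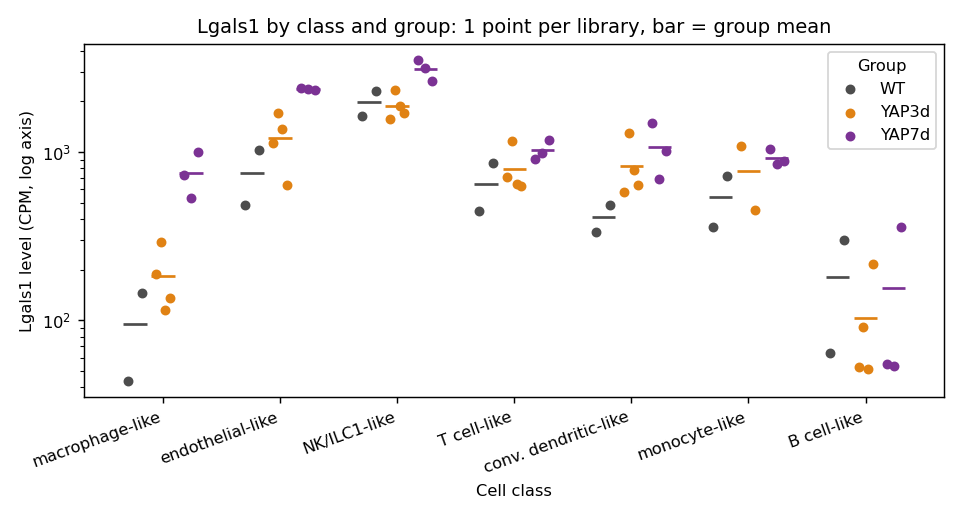
Level of Lgals1 in 7 cell classes, in CPM on a log axis, with 1 point per library with at least 10 cells and a bar at the group mean. YAP7d libraries lie above all WT and YAP3d libraries in macrophage-like, endothelial-like and NK- and ILC1-like cells, and among the others in B-cell-like cells.

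In endothelial-like cells Lgals1 was at 484 and 1024 CPM in WT (mean 754 ± 382, SD, n = 2), at 1128, 1712, 1365 and 634 CPM in YAP3d (1210 ± 453, SD, n = 4) and at 2403, 2377 and 2345 CPM in YAP7d libraries (2375 ± 28.9, SD, n = 3). The YAP7d libraries were alike and lay above all others. Lgals1 rose by 1.68 on the log2 scale (SE 0.33, adjusted p 0.00207) against WT and by 1.05 (SE 0.26, adjusted p 0.0111) against YAP3d by edgeR's quasi-likelihood test. With S100a4, 2 of 8 members were called against WT and 1 against YAP3d, where 18.4% and 17.1% of 7467 genes were called, so a call was no rare event in this class. Between YAP3d and WT 0 members and 0% of genes were called, with 1 member, S100a4, at an unadjusted p below 0.05 and none called by DESeq2.

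Endothelial-like cells of YAP7d mice were few and fell in another cluster. Cluster 23, led by Cldn5, Egfl7 and Fabp4, held 1, 4 and 92 cells of WT, YAP3d and YAP7d mice, whereas clusters 3, 6 and 7, with the sinusoidal gene Clec4g among their leading genes, held 151, 281 and 345 cells of WT and 9, 6 and 4 cells of YAP7d mice. Lgals1 in cluster 23 was at 2296, 2454 and 2425 CPM in YAP7d libraries. It was at 222 and 422 CPM in WT and 200, 922, 865 and 340 CPM in YAP3d libraries in cluster 6, and at 677 and 1740 CPM and 1834, 2696, 1750 and 1364 CPM in cluster 3. No cluster with enough cells held both WT and YAP7d libraries, so YAP7d and the cell cluster cannot be told apart here. Endothelial markers in the class summed to between 16145 and 18213 CPM in WT, 15278 and 16898 CPM in YAP3d and 8347 and 8621 CPM in YAP7d libraries, and cell cycle genes to 147 to 245 CPM, 198 to 779 CPM and 1357 to 2032 CPM. The part of these in the result was not tested.

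In NK- and ILC1-like cells Lgals1 was at 1646 and 2306 CPM in WT (mean 1976 ± 467, SD, n = 2), at 1562, 2345, 1870 and 1702 CPM in YAP3d (1870 ± 341, SD, n = 4) and at 3516, 3142 and 2658 CPM in YAP7d libraries (3105 ± 430, SD, n = 3). Every YAP7d value was above all others. Lgals1 rose by 0.71 on the log2 scale (SE 0.21, adjusted p 0.0442) against WT and by 0.84 (SE 0.17, adjusted p 0.00368) against YAP3d by edgeR's quasi-likelihood test. The call against WT was lost without either WT library (adjusted p 0.440 and 0.0709), without YAP3d replicate 1 or 3 (0.0518 and 0.0554) and without YAP7d replicate 1 or 2 (0.0782 and 0.0781), whereas that against YAP3d stood without any 1 library. With thinned cells the log2 fold change against WT was 0.67 (adjusted p 0.0536), and without cycling cells both calls were lost, with 0.49 (adjusted p 0.401) against WT and 0.47 (adjusted p 0.282) against YAP3d. Within the class Lgals1 was low in cluster 0, at 1132 and 1365 CPM in WT and 859 CPM in YAP7d replicate 3, and high in cluster 5, at 2452 and 3455 CPM in WT, 2699, 2899 and 3016 CPM in YAP3d and 3754, 3142 and 2956 CPM in YAP7d libraries. Cluster 5 alone gave log2 fold changes of 0.23 (adjusted p 0.601) against WT and 0.30 (adjusted p 0.341) against YAP3d by edgeR's quasi-likelihood test. The part of cluster membership in the rise was not tested.

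With the fall of S100a4, 2 of 8 members were called in NK- and ILC1-like cells between YAP7d and WT and 1 between YAP7d and YAP3d, where 7.9% and 14.1% of 4165 genes were called. Between YAP3d and WT 0 members and 0% of genes were called, with no member at an unadjusted p below 0.05 and none called by DESeq2. T-cell markers in the class summed to 1580 and 1589 CPM in WT, to between 953 and 1979 CPM in YAP3d and to between 145 and 384 CPM in YAP7d libraries, while NK and ILC1 markers overlapped, at 15931 to 17106 CPM, 14511 to 18503 CPM and 13664 to 17035 CPM. Cell cycle genes were at 178 to 1298 CPM, 194 to 1266 CPM and 2102 to 2467 CPM. The part of these in the results was not tested.

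In 4 other classes no member was called against WT. In T-cell-like cells Lgals1 was at 444 and 854 CPM in WT, at 711, 1169, 646 and 624 CPM in YAP3d and at 907, 986 and 1175 CPM in YAP7d libraries (log2 fold change 0.70, SE 0.32, adjusted p 0.577 by edgeR's quasi-likelihood test). The class was mixed, with Lgals1 between 56.5 and 299 CPM in cluster 9, led by Lef1, a gene of resting T cells, and between 1324 and 3210 CPM in cluster 11, which held 56 of the WT, 113 of the YAP3d and 134 of the YAP7d cells of the class. Of 8 members and of 6534 genes, 0 and 0% were called between YAP7d and WT, 0 and 0% between YAP3d and WT, and 0 and 0.918% between YAP7d and YAP3d. Members at an unadjusted p below 0.05 numbered 3, 1 and 2 in this order, and DESeq2 called 1, 0 and 1.

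Conventional-dendritic-like cells had Lgals1 at 335 and 486 CPM in WT, 579, 1302, 777 and 634 CPM in YAP3d and 1495, 693 and 1014 CPM in YAP7d libraries, with no overlap between YAP7d and WT (log2 fold change 1.29, SE 0.37, adjusted p 0.24 by edgeR's quasi-likelihood test). Of 8 members and of 4007 genes, 0 and 0% were called between YAP7d and WT, 0 and 0% between YAP3d and WT and 0 and 0.025% between YAP7d and YAP3d. Members at an unadjusted p below 0.05 numbered 4, 3 and 0, and DESeq2 called 3 (S100a4, S100a6 and Lgals1), 0 and 0. The edgeR test called no gene of the class between YAP7d and WT, against 329 genes at an unadjusted p below 0.05 and 35 by DESeq2.

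Monocyte-like cells had Lgals1 at 359 and 715 CPM in WT, 1080 and 453 CPM in YAP3d and 1041, 844 and 889 CPM in YAP7d libraries (log2 fold change between YAP7d and WT 0.73, SE 0.36, adjusted p 0.669 by edgeR's quasi-likelihood test). Of 8 members and of 6207 genes, 0 and 0.161% were called between YAP7d and WT, 0 and 0% between YAP3d and WT and 0 and 0% between YAP7d and YAP3d, in 7 libraries. Members at an unadjusted p below 0.05 numbered 3, 1 and 0, and DESeq2 called 0 in each. B-cell-like cells had Lgals1 at 64.3 and 299 CPM in WT, 53.2, 91.2, 51.6 and 216 CPM in YAP3d and 55.2, 53.2 and 360 CPM in YAP7d libraries, with wide overlap. Of 7 members and of 2231 genes, 0 and 0.0448% were called between YAP7d and WT, 0 and 0% between YAP3d and WT, and 0 and 0% between YAP7d and YAP3d, with no member at an unadjusted p below 0.05 in any of these and 0 called by DESeq2.

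Over all cells Lgals1 was at 549 and 872 CPM in WT, 786, 1076, 843 and 653 CPM in YAP3d and 1319, 840 and 1120 CPM in YAP7d libraries, with a log2 fold change between YAP7d and WT of 0.79 (SE 0.30, adjusted p 0.0916 by edgeR's quasi-likelihood test). Endothelial-like cells held between 37.0% and 38.8% of its UMIs in WT and between 11.4% and 53.0% in YAP3d libraries, and macrophage-like cells between 21.4% and 39.6% in YAP7d libraries. The class with the largest share was endothelial-like in 5 of the 6 WT and YAP3d libraries, monocyte-like (30.8%) in YAP3d replicate 2, NK- and ILC1-like (31.6%) in YAP7d replicate 1 and macrophage-like in YAP7d replicates 2 and 3.

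Of 189 results for a member, a class or all cells, and a comparison, 9 were called. The 3 comparisons share libraries, so a call against WT and a call against YAP3d are not independent. The median log2 fold change of the members between YAP7d and WT was 1.54 in endothelial-like, 1.43 in macrophage-like, 0.91 in T-cell-like, 0.70 in monocyte-like and 0.43 in conventional-dendritic-like cells, against medians of all tested genes between -0.04 and 0.04. It was -0.18 in NK- and ILC1-like and -0.16 in B-cell-like cells. All 8 genes are in the medians (7 in B-cell-like cells), S100a8 and S100a9 included, whose levels outside neutrophil-like cells were for the most part those of B-cell-like cells, so no list-wide change is read from them.

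Where the Gm10709 split was taken into the fit as a term, none of the 9 calls was kept, and all 9 kept their direction. Lgals1 in endothelial-like cells then had log2 fold changes of 1.20 (SE 0.45, adjusted p 0.195) against WT and 0.82 (SE 0.31, adjusted p 0.140) against YAP3d by edgeR's quasi-likelihood test. Within the 5 libraries with over 100 CPM of Gm10709, Lgals1 in macrophage-like cells was at 189 and 291 CPM in YAP3d and 726, 532 and 996 CPM in YAP7d libraries, and in endothelial-like cells at 1128 and 1712 CPM and 2403, 2377 and 2345 CPM. YAP7d remained above YAP3d within these libraries. No such comparison can be made with WT.

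Relatives and partners of the members were looked at as 4 lists of genes, of which 10 other S100 genes, 7 other galectins, 12 annexins and 17 partners or receptors were in the table. In macrophage-like cells 0 of the 25 tested were called in any comparison by edgeR's quasi-likelihood test, with 3 at an unadjusted p below 0.05 between YAP7d and WT, 1 between YAP3d and WT and 3 between YAP7d and YAP3d, and 0 called by DESeq2. Lgals3, galectin-3, which macrophages secrete, was at 654 and 793 CPM in WT, at 913, 831, 1010 and 611 CPM in YAP3d and at 1128, 1485 and 1543 CPM in YAP7d libraries (log2 fold change between YAP7d and WT 0.89, SE 0.29, adjusted p 0.116 by edgeR's quasi-likelihood test). Tlr4, a receptor of calprotectin, was at 54.5 and 37.4 CPM, 51.7, 20.4, 23.0 and 27.5 CPM, and 26.5, 29.6 and 13.8 CPM (-0.93, SE 0.46, adjusted p 0.298 by the same test).

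In endothelial-like cells 6 of the 24 tested were called between YAP7d and WT and 7 between YAP7d and YAP3d, in both directions, beside 18.4% and 17.1% of all 7467 genes, a difference that was not tested, and 0 between YAP3d and WT, with none there at an unadjusted p below 0.05 or called by DESeq2. Of 8 annexins tested, Anxa1, an S100a11 partner that damps inflammation, rose by 2.13 (SE 0.36, adjusted p 0.000802) and Anxa2 by 0.77 (SE 0.22, adjusted p 0.0242) on the log2 scale by edgeR's quasi-likelihood test. Anxa1 was at 15.4 and 26.4 CPM in WT, 20.8, 73.8, 30.4 and 37.0 CPM in YAP3d and 113, 67.6 and 99.2 CPM in YAP7d libraries, and Anxa2 at 227 and 274 CPM, 226, 300, 229 and 249 CPM, and 429, 298 and 503 CPM. Of both, WT and YAP7d libraries did not overlap. Over all cells Anxa1 was at 50.1 and 85.2 CPM in WT and at 58.2 to 179 CPM in YAP7d libraries. The part of free RNA in its endothelial-like level was not tested. Anxa5, at 759 and 677 CPM in WT and 632, 460 and 513 CPM in YAP7d libraries, was not called (log2 fold change -0.39, adjusted p 0.108 by the same test).

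Of 2 other S100 genes tested in endothelial-like cells, S100a1, the neighbour of S100a13, fell by 0.74 on the log2 scale (SE 0.19, adjusted p 0.0148 by edgeR's quasi-likelihood test), from 422 and 379 CPM in WT to 176, 280 and 241 CPM in YAP7d libraries. Of 11 partners tested, the scaffold Ahnak fell by 1.52 (SE 0.34, adjusted p 0.00639) and Nrp1, a galectin-1 receptor of endothelium, by 0.997 (SE 0.15, adjusted p 0.000247) by the same test. Of 3 other galectins, Lgals3 rose by 2.42 (SE 0.45, adjusted p 0.00153). Its endothelial-like level, 7.09 and 25.1 CPM in WT, 27.8, 41.5, 34.0 and 32.4 CPM in YAP3d and 72.3, 40.6 and 139 CPM in YAP7d libraries, was below that of B-cell-like cells in 6 of 9 libraries. No expression is read from such levels, and the part of free RNA in them was not tested.

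In NK- and ILC1-like cells 1 of the 20 tested, Lgals3, was called between YAP7d and WT, beside 7.9% of all 4165 genes. There 0 of 6 annexins and 0 of 10 partners tested were called by edgeR's quasi-likelihood test, with 1 of each at an unadjusted p below 0.05 and 0 called by DESeq2. Lgals3, at 37.4 and 78.0 CPM in WT and 133, 150 and 275 CPM in YAP7d libraries, gave a log2 fold change of 1.66 (SE 0.50, adjusted p 0.0492 by edgeR's quasi-likelihood test), with B-cell-like cells at 64.4, 126 and 290 CPM in the YAP7d libraries. Over all cells 6 of the 29 tested were called between YAP7d and WT, beside 18.1% of all 12071 genes. Endothelial-like cells went from 53.0% and 35.5% of cells in WT to between 3.49% and 4.99% in YAP7d libraries, and their part in these 6 results was not tested. S100a16 fell by 2.72 (adjusted p 0.00521), S100a1 by 1.30 (adjusted p 0.0111), Nrp1 by 2.61 (adjusted p 0.00494) and Fgf1, the growth factor that S100A13 helps release, by 2.73 (adjusted p 0.0207) on the log2 scale between WT and YAP7d, by the same test. Lgals3 rose by 2.65 (adjusted p 0.0278) and Anxa3 by 0.81 (adjusted p 0.0396). In T-cell-like, conventional-dendritic-like, monocyte-like and B-cell-like cells 0 of 20, 23, 26 and 10 tested genes of the 4 lists were called between YAP7d and WT by the same test, with 3, 3, 4 and 1 at an unadjusted p below 0.05 and 0 called by DESeq2.

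The genes most like each member were found by Pearson's r of log2(CPM + 1) over 62 profiles, each a class in a library with at least 20 cells, from 10 classes and among 5801 genes. Profiles of a library share its depth and its free RNA, so these values are a description. S100a8 was most like S100a9 (0.95), followed by Retnlg (0.91), Stfa2l1 (0.90), Gm5483 (0.89) and Asprv1 (0.87), of which Retnlg and Stfa2l1 are among the markers that named the neutrophil-like class. S100a13 was most like Atp2b4 (0.85), Tpst2 (0.84), Tmem9b (0.84), Itga1 (0.83) and Aplp2 (0.81), and S100a4 most like Tspo (0.82), S100a6 (0.80), Sulf2 (0.80), Actg1 (0.80) and Sema4a (0.79).

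S100a6 was most like Glipr1 (0.87), and Lgals1 most like Tagln2 (0.80), an actin-binding protein gene, and 1700025G04Rik (0.78). S100a10 and S100a11 had no near match: the highest r was 0.75 with Gnpnat1 and 0.74 with Ahnak, its known partner, for S100a10, and 0.68 with Ube2d3 for S100a11, with Anxa1 (0.65) the last of its 5. Among the members themselves, S100a13 and Lgals1 had an r of 0.65 and S100a6 and S100a11 of 0.61. S100a11 had an r of 0.54 with S100a8 and of 0.52 with S100a9. S100a4 and Lgals1 had an r of 0.51, and S100a8 and S100a10 of -0.26.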

How the data were processed

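Liver cells of 9 mice were captured in droplets and their RNA sequenced from the 3′ end. The authors aligned the reads with Cell Ranger and deposited a table of UMI counts per gene and cell, not normalized (mm10 and Seurat 2 are named in the submitters' processing notes), in which the start of a cell's name gives its library. Groups were taken from the labels. The 8 members, the gene lists and the tests were chosen with earlier results of these data known.

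Cells with under 200 genes were left out (35 of 8562). Counts were scaled per cell and log-transformed, and of 2500 variable genes 2430 entered the clustering, without the members, the listed genes and genes correlated above 0.4 with the cell cycle. Leiden clustering at resolution 1 on 15 neighbours in 30 principal components (scanpy 1.11.5, igraph 0.11.9, seed 0) gave 25 clusters, each named by at least 3 raised markers of 180 in the table. In 22 cells the class stayed unnamed. Scrublet called 60 doublets (0.704%), which were kept. It marked few cells, so undetected doublets may remain, and 353 cells with over 10% mitochondrial counts were kept as well.

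Counts were summed per library and class, with at least 10 cells, and over all cells. All 3 groups were fitted together with edgeR 4.0.16 (filterByExpr, TMM, quasi-likelihood test; R 4.3.3), and p-values were adjusted by the Benjamini-Hochberg method over all genes of a class, with a threshold of 0.05. The p-values measure the spread between these mice. DESeq2 1.42.0 was a second tool. A limit for a count of 0 is 3 counts. Shares of cells with a UMI were taken after thinning to 2000 UMIs, which left out the 640 cells below that. The fit was tested on simulated data. Python 3.11.15, numpy 2.4.6, scipy 1.17.1, pandas 2.3.3, anndata 0.12.19, scikit-learn 1.9.0 and matplotlib 3.10.9 were used.

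All members are reported whatever their change. Other genes are named when they passed the threshold, as Anxa1, Anxa2, Anxa5, Lgals3 and Tlr4 whatever their change, or as 1 of the 5 genes most like a member among those with a mean of at least 50 CPM in a class. Alternatives were other size factors, no filter on low counts, each library left out, only the 2 groups compared, a replicate block, a Gm10709 term, stricter cell filters, resolution 2, thinned cells, no cycling cells and Kupffer-like cells alone. Single clusters and conventional-dendritic-like cells with at most 1 Elane UMI were added after the data were seen. Promoters come from the RefSeq table of GRCm38.p6, and coordinates from RefSeq gene models of the same build. Replicate numbers did not pair the libraries: samples with the same number had correlations of their deviations between -0.29 and 0.21.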

Additional observations from a re-analysis of the deposited data

Results flagged for a closer look

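In groups of 4 libraries, that is in YAP3d, 1 library lay far from the other 3 in 6 of 56 sets of values. The limit used flags about 1 in 20 sets of independent normal values. These sets share libraries and are not independent, so no excess is read from the count. Lgals1 in T-cell-like cells was at 1169 CPM in YAP3d replicate 2 against 624.3 to 710.5 CPM in the others. In the same library S100a4 over all cells was at 875.9 CPM against 166.7 to 237.1 CPM, and S100a6 over all cells at 1682 CPM against 484.9 to 559.4 CPM. In YAP3d replicate 4, S100a10 in macrophage-like cells was at 131.8 CPM against 51.66 to 61.09 CPM, S100a8 in endothelial-like cells at 211.3 CPM against 17.35 to 32.3 CPM, and S100a9 in endothelial-like cells at 157 CPM against 6.939 to 32.3 CPM.

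For 3 members the difference between YAP7d and WT had opposite directions in a pair of cell classes, with every YAP7d library on one side of both WT libraries in each class. This was so in 8 of the 168 pairs examined between YAP7d and WT, and in 0 of the other pairs among 504 over all 3 comparisons. All 8 pairs include NK- and ILC1-like cells, so they are not separate observations, and the share over all genes was not computed. The exact two-sided permutation p of each of the 8 is 0.2, the smallest that 3 against 2 libraries allow. Pairs picked for full separation can give no other value, so it is no support. S100a4 was lower in NK- and ILC1-like cells and higher in the 3 classes set against them: the log2 difference of NK- and ILC1-like cells minus that of T-cell-like cells was -2.702, minus that of conventional-dendritic-like cells -2.78 and minus that of monocyte-like cells -1.856. For S100a6 the same differences were -1.507 against T-cell-like, -1.891 against conventional-dendritic-like, -2.011 against macrophage-like and -1.071 against monocyte-like cells. For S100a11 it was -0.8517 against monocyte-like cells.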

How the results depend on the processing

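Within classes, 5 member results were called between YAP7d and WT, in 7 fitted classes. Without cycling cells only 4 classes could be fitted. Endothelial-like cells, with 2 of these 5 calls and 1 of the 3 between YAP7d and YAP3d, were not among them. Thinned cells and the fits without YAP3d replicate 1 or 3 covered 6 classes. DESeq2 called 9, no filter on low counts 24, the replicate block 6, thinned cells 1 (Lgals1 in endothelial-like cells), a term for Gm10709 0, cells without cycling cells 0, and fits without 1 library 1 to 6 (1 without WT replicate 1, 2 without WT replicate 2, 3 without YAP3d replicate 1, YAP7d replicate 1 or YAP7d replicate 2). Between YAP3d and WT 0 were called, with 4 without the filter, 2 with the block and 0 without 1 library each. Between YAP7d and YAP3d 3 were called, against 4 with DESeq2, 18 without the filter, 8 with the block, 0 with the Gm10709 term, 0 without cycling cells and 2 to 6 without 1 library (6 without YAP3d replicate 2, 5 without YAP3d replicate 4). Over all cells 1 was called between YAP7d and WT, against 2 without the filter, 2 with only the 2 groups, 2 with thinned cells, 2 without cycling cells (S100a4 and S100a6, with S100a13 lost), 0 with the Gm10709 term, 1 with the block and 0 to 2 without 1 library. Between YAP7d and YAP3d 0 were called over all cells, and 0 to 3 without 1 library (3 without YAP3d replicate 2). The cause of these moves was not tested. Same-numbered libraries did not deviate together, so the block shares only a number.

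The 6 calls of Lgals1 kept their direction under every setting run. Against WT it passed in endothelial-like cells under 18 of 19 settings (log2 fold change 1.20 to 2.34; 1.20, adjusted p 0.195, with the Gm10709 term), in macrophage-like cells under 16 of 23 (1.35 to 4.16; adjusted p 0.0951 without WT replicate 1 and 0.141 without WT replicate 2) and in NK- and ILC1-like cells under 9 of 21 (0.23 to 1.10). Against YAP3d it passed under 18 of 19 (0.82 to 1.26), 13 of 23 (1.08 to 2.68; adjusted p up to 0.600) and 18 of 21 (0.30 to 1.02) in the same order. S100a4 in NK- and ILC1-like cells reversed in cluster 5 alone, with 1.44, and ran from -1.22 to 1.44. In endothelial-like cells it lost its call without WT replicate 1 (2.34, adjusted p 0.102) and with the block (adjusted p 0.169). S100a8 in NK- and ILC1-like cells was 1.12 between YAP7d and YAP3d and reversed to -1.80 without YAP7d replicate 3 (-1.80 to 2.21 without 1 library). S100a13 over all cells ran from -0.94 to -0.41 and passed under 13 of 19. Of 3543 settings of the 180 results not called, 77 passed in the same direction, 41 of these without the filter, and 1 in the other. The unthinned shares of macrophage-like cells with a Lgals1 UMI were 29.08%, 41.98% and 85.52%.

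Counts of called genes over whole classes moved as well. Between YAP7d and WT they were 1376 in endothelial-like cells (233 with the Gm10709 term, 438 thinned, 660 without WT replicate 1), 329 in NK- and ILC1-like cells (0 with the term, 28 without cycling cells, 60 without WT replicate 2), 108 in macrophage-like cells (0 with the term or without WT replicate 2, 520 without the filter), 10 in monocyte-like cells (0 to 170), 1 in B-cell-like cells (0 to 53), 0 in T-cell-like (up to 224) and conventional-dendritic-like cells (up to 153) and 2184 over all cells (0 with the term, 509 without WT replicate 1). Between YAP7d and YAP3d they were 1278 in endothelial-like cells (370 thinned), 587 in NK- and ILC1-like cells (50 without cycling cells), 60 in T-cell-like cells (0 to 427), 23 in macrophage-like cells (2 thinned, 465 without YAP3d replicate 2), 1 in conventional-dendritic-like cells (0 to 186), 0 in B-cell-like (up to 73) and monocyte-like cells (up to 66) and 1988 over all cells (114 with the term, 3569 without YAP3d replicate 2). Between YAP3d and WT they were 0, and at most 47 without the filter.

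Depth limits the classes with few cells, above all hepatocyte-like cells and endothelial-like cells of YAP7d mice. A Gm10709 limit of 3 CPM was passed by all 9 libraries and was not run, macrophage-like cells with under 2 Kupffer UMIs and endothelial-like cells without cycling cells were too few, and endothelial-like S100a4 has no value without YAP7d replicate 3.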

Other observations

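Transcripts of cell cycle genes moved with several of the results. The share of cells with at least 2 UMIs of a list of cell cycle genes, which also rises with depth, was 16.5%, 20.6% and 86.5% in endothelial-like cells of WT, YAP3d and YAP7d mice, 34.0%, 50% and 92.7% in macrophage-like cells, 27.7%, 23.9% and 75.1% in NK- and ILC1-like cells and 22.9%, 22.5% and 48.8% in T-cell-like cells. Within T-cell-like cells Lgals1 was higher in the cells with such transcripts than in those without in 9 of 9 libraries, S100a11 in 9 of 9, and S100a6 and S100a10 in 8 of 9. Lgals1 was higher in cells with such transcripts in 2 of 6 libraries in macrophage-like, 3 of 6 in NK- and ILC1-like and 4 of 6 in endothelial-like cells. No YAP7d library is in the endothelial-like split, as their cells without such transcripts numbered 6, 4 and 5. The macrophage-like split lacks replicate 1 of each group. Fits without cycling cells kept no call of Lgals1 in macrophage-like or NK- and ILC1-like cells, and were not run in endothelial-like cells. The part of the cell cycle in these results was not tested. These splits are descriptions of the libraries with at least 10 cells on both sides, with no test.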
